A study of Mus musculus with 4 samples.

Results

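The kidney sections of mice lacking urate oxidase held a small set of spots rich in transcripts of fat cells. These fat-rich spots, the members, were chosen by their own readout. In each of the 2 Uox_KO sections, the UMIs (unique molecular identifiers, 1 per captured transcript) of Ucp1, Cidea, Adipoq and Plin1 were divided by the non-mitochondrial UMIs of the spot, scaled to 10000, log-transformed and summed, and the top 6% of spots were taken. This gave 159 of 2650 spots in section 1 and 155 of 2590 spots in section 2. The 314 members stood among 5240 Uox_KO spots, and among 11130 spots in the whole series. The other 4926 Uox_KO spots are called the remaining spots.

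The series measured kidney by the Visium assay, in which a slide captures polyadenylated RNA from the tissue above each spot, on fresh tissue frozen in OCT and cut at 10 µm. A spot is a small region that can hold several cells of different types. The Uox_KO mice lack exons 2 to 4 of Uox, the gene of urate oxidase, which degrades uric acid in rodents. The deletion is in a commercially supplied line and is not restricted to the kidney by any label. The Control mice are wild type from the same supplier. All were male and on the C57BL/6J background, with 2 sections per genotype and 1 mouse named for each. Age, diet and treatment are not given in the sources used here. Uox had 0 UMIs in all 4 sections, so this assay gives no check of the genotype. Nothing beyond the sample titles says that sections came from separate mice, and the spread between the 2 sections may be technical.

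Brown fat cells burn fatty acids and glucose for heat. Their mitochondria carry UCP1, which lets protons return across the inner membrane without making ATP, and β-adrenergic signals from sympathetic nerves release the fatty acids and raise Ucp1 transcription. White fat cells hold 1 large lipid droplet, store energy and secrete adipokines such as leptin, adiponectin and, in mice, resistin. The fat around the mouse kidney and at its hilus contains both brown and white fat cells and can shift between these states. Of the 4 markers, UCP1 and CIDEA mark brown and beige fat in mice, while adiponectin (Adipoq) and the droplet coat protein perilipin 1 (Plin1) are made by fat cells of either kind.

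All 4 markers were detected in 135 of 159 members of section 1 and in 153 of 155 members of section 2. Only 2 and 1 members had no Ucp1 UMI, and 8 and 1 members had no Adipoq UMI. The median score was 11.46 and 11.21 in members, against 0 and 0.34 in the remaining spots. Members held 95.4% and 91.5% of the Ucp1 UMIs of their sections and 79.8% and 81.1% of the Adipoq UMIs, with 5.18% and 7.66% of all UMIs. Because these values chose the spots, they describe the set and are not tested. The lowest score of a member was 5.70 in section 1 and 7.93 in section 2, next to 5.67 and 7.85 in the highest spot outside. Fat transcripts did not end at this edge. In the 20 spots just inside it, Ucp1 stood at 510 and 628 unscaled CPM (UMIs divided by the UMIs of those spots, times 1e6), against 125 and 265 unscaled CPM in the 20 spots just outside. Cfd, the gene of the adipokine adipsin, was lower just inside in both sections, at 10022 and 19139 unscaled CPM, against 22546 and 20044 just outside. The gene bodies of the markers lie on chromosome 8 at 83290348 to 83298456 (Ucp1), chromosome 16 at 23146536 to 23157968 (Adipoq) and chromosome 7 at 79721164 to 79732904 (Plin1), in the GRCm38.p6 RefSeq annotation.

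Depth, mitochondrial share and other tissue moved with the choice of spots. Whole sections held 53897511 and 57230517 UMIs in Uox_KO, against 93524222 and 107962997 UMIs in Control. Members gave 2794145 and 4386108 UMIs, against 51103366 and 52844409 UMIs from the remaining spots. The median spot held 14516 and 24607 UMIs among members, against 16852 and 19205 UMIs among remaining spots, so the sections differed in which set was deeper. Mitochondrially encoded transcripts took 28.7% and 23.2% of member UMIs, against 13.5% and 16.8% of the remaining UMIs. Of the members, 48 (30.2%, exact 95% interval 23.2 to 38.0%) in section 1 and 28 (18.1%, 12.4 to 25.04%) in section 2 were also in the top 6% of spots for the uroplakin genes of urothelium, while 0 and 2 were in the top 6% for macrophage genes and 1 and 3 for collagen genes. Intervals cover counting error only. The lowest score in the uroplakin set was 1.78 in section 1 and 0.51 in section 2, so few uroplakin UMIs could admit a spot. It was 6.59 and 6.24 in the macrophage set and 10.3 and 9.34 in the collagen set. The 2 Uox_KO sections shared 1925 spot barcodes, which the array prints alike on every slide, and no barcode was a member in both.

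For the comparisons below, counts were summed over members and over remaining spots within each section. Levels are CPM after TMM scaling, unless called unscaled, given for section 1 and then section 2, and fold changes are members over the other spots on the log2 scale ± SE from edgeR's quasi-likelihood fit with the section as a block. The 4 markers were left out, and other genes of the same cells had to move with them. A call (Benjamini-Hochberg adjusted p below 0.05) says only that a difference exceeds a spread between sections that was pooled over genes. It need not exceed the gene's own spread between the 2 sections. Among 15052 genes tested, 3551 (23.6%) were higher and 3949 (26.2%) lower in members, with a median log2 fold change of -0.08. Scaling by library totals alone gave 1856 higher and 7388 lower and moved that median to -0.61. Values are therefore relative to the other genes of the same spots, and in such sums fewer cells of a type and less RNA per cell cannot be told apart.

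Genes of brown fat heat production were among the most strongly raised. Of the 29 tested genes of a list of 33, 22 were higher and 4 lower in members (median log2 fold change 3.46, called the median below). Cox8b, a cytochrome c oxidase subunit gene of brown fat and muscle (chromosome 7, 140898942 to 140900446), stood at 3606 and 4406 CPM in members, against 8.36 and 25.4 CPM in remaining spots, a log2 fold change of 8.08 ± 0.30. Elovl3, which elongates fatty acids and is induced by cold in brown fat, stood at 108 and 75.6 CPM in members, against 0.257 and 0.449 CPM in remaining spots (7.99 ± 0.21). For both genes the lower member value was more than 100 times the higher remaining value, and Elovl3 rested on only 16 and 28 UMIs in the remaining spots.

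Adrb3, Dio2 and Cpt1b of the same list were raised with them. Adrb3, the β3-adrenergic receptor of rodent fat cells, stood at 186 and 164 CPM in members, against 1.60 and 1.88 CPM in remaining spots (6.65 ± 0.18). Dio2, which activates thyroid hormone locally, stood at 70.0 and 30.3 CPM in members, against 0.786 and 0.594 CPM in remaining spots (6.12 ± 0.21). Cpt1b, the carnitine palmitoyltransferase that admits long-chain fatty acids to mitochondria in muscle and brown fat, stood at 311 and 336 CPM in members, against 5.12 and 6.96 CPM in remaining spots (5.75 ± 0.19). Both member sums were above both sums of remaining spots for each of these genes, as they were for 34.7% of all genes tested, while single spots overlapped, with a Dio2 UMI in 50.3% and 43.2% of members, against 1.93% and 1.48% of remaining spots. Dio2 differed between the member sums of the 2 sections by more than 2-fold, while Cpt1b differed little.

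Other brown fat genes changed the same way. The log2 fold change was 7.44 ± 0.19 for Otop1, a proton channel gene, 7.05 ± 0.18 for Clstn3, 6.68 ± 0.27 for the UCP1 relative Ucp3, 6.49 ± 0.20 for the potassium channel gene Kcnk3 and 5.19 ± 0.22 for the cytochrome c oxidase subunit gene Cox7a1. Nrg4, whose product is secreted by brown fat, rose by 5.20 ± 0.17. The brown fat transcription factor gene Ebf2 rose by 6.11 ± 0.49 on 21 and 60 UMIs in members, against 3 and 21 UMIs in remaining spots.

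Prdm16 and Ppargc1a, 2 regulators of the mitochondrial and thermogenic programmes, had smaller fold changes than Ebf2, and only that of Prdm16 passed the test. Prdm16, a determinant of brown fat identity, stood at 8.54 and 8.53 CPM in members, against 2.69 and 3.19 CPM in remaining spots (1.52 ± 0.33). Ppargc1a, the coactivator PGC-1α, which is also abundant in kidney tubules, stood at 15.8 and 12.9 CPM in members, against 14.4 and 17.1 CPM in remaining spots (-0.16 ± 0.20), and was not called (edgeR adjusted p = 0.52). Its relative Ppargc1b did rise, by 3.46 ± 0.28. Pank1 and Acot2 were not called either, at 0.06 ± 0.16 and 0.24 ± 0.15 (edgeR adjusted p = 0.77 and 0.17).

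Of the brown fat list, 4 genes fell. Slc27a2, a very long-chain fatty acid transporter and acyl-CoA synthetase of proximal tubule and liver, stood at 110 and 186 CPM in members, against 1125 and 1055 CPM in remaining spots (-2.92 ± 0.20). Esrrg, Them4 and Gmpr fell by 1.27, 0.68 and 0.64 on the log2 scale. Zic1, Fgf21 and Cited1 were listed but did not pass the filter on low counts.

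**Figure D1:**
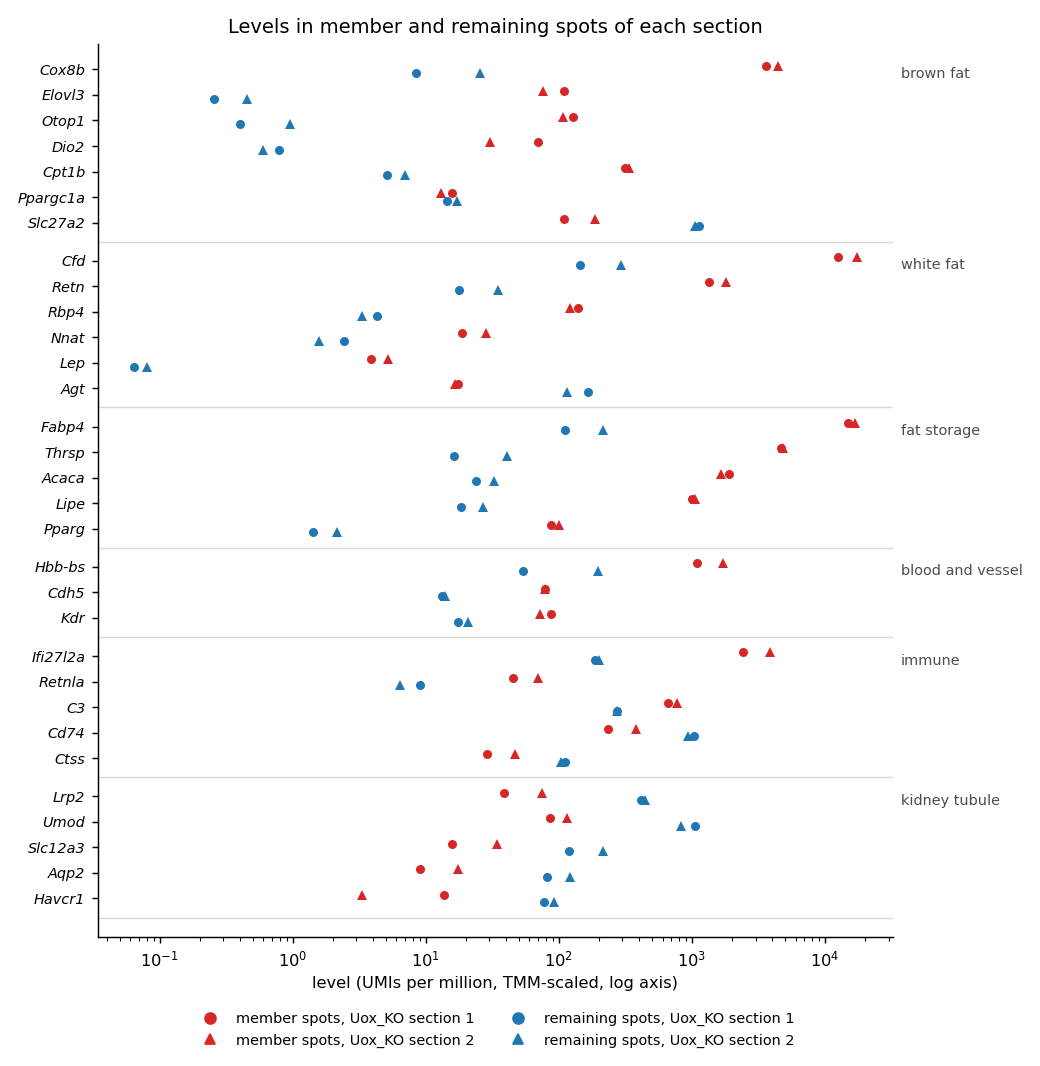
Levels of named genes (CPM, TMM-scaled, log axis) in member spots (red) and remaining spots (blue) of Uox_KO section 1 (circles) and section 2 (triangles). The red points of Cox8b sit at 3606 and 4406, against blue points at 8.36 and 25.4.

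Genes of the white fat and adipokine list were present in the same spots, so the set is called fat-rich and not brown fat. Their presence alone does not tell white from brown fat cells. The top 1% of spots, where Ucp1 was highest, also held Cfd at 9434 and 12340 and Retn at 882 and 758 unscaled CPM. Retn, the gene of resistin (chromosome 8, 3655770 to 3659818), stood at 1350.2 and 1802 CPM in members, against 17.8 and 34.6 CPM in remaining spots (5.97 ± 0.23). Cfd stood at 12564 and 17276 CPM in members, against 144 and 291 CPM in remaining spots (6.17 ± 0.34). Rbp4, the retinol carrier that fat cells secrete, stood at 138 and 121 CPM in members, against 4.31 and 3.32 CPM in remaining spots (5.09 ± 0.16). Both member sums were above both sums of remaining spots for each of these adipokine genes, as they were for 34.7% of all genes tested. Many remaining spots nevertheless held a Cfd UMI.

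Leptin was detected at the limit of depth. Lep had 9 and 19 UMIs in members, against 4 and 5 UMIs in the remaining spots, whose summed counts were far larger (5.90 ± 0.73). Hoxc8, a homeobox gene typical of white fat, rose by 3.97 ± 0.33, and Hoxc9 and Hoxc10, which kidney also expresses, by 0.87 ± 0.24 and 0.89 ± 0.21. Nnat, neuronatin, stood at 18.8 and 28.3 CPM in members, against 2.41 and 1.57 CPM in remaining spots (3.61 ± 0.26).

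The white fat list as a whole was mixed, with 12 of 19 tested genes higher and 6 lower (median 0.92), or 8 and 6 under library totals. Agt, angiotensinogen, which fat and proximal tubule both make, stood at 17.5 and 16.5 CPM in members, against 166 and 115 CPM in remaining spots (-3.01 ± 0.18). Wt1, a gene of visceral fat precursors and of glomerular podocytes, fell by 1.76, the serine synthesis gene Psat1 by 1.70, Apln by 0.99, Adamtsl5 by 0.78 and Tcf21 by 0.59, the last turning to 0.52 for the top 10% of spots. Nrip1 was not called (0.23 ± 0.17, edgeR adjusted p = 0.24). Mest rose by 1.65 ± 0.64, but on 1 and 14 UMIs, and in section 1 alone its direction turned.

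Lipid storage and release genes were raised with 1 exception. Of 27 tested genes of the droplet and lipolysis list, 26 were higher and 1 lower (median 3.72). Fabp4, the fatty acid binding protein of fat cells and capillary endothelium, stood at 14858 and 16802 CPM in members, against 111 and 215 CPM in remaining spots (6.68 ± 0.35). Cidec, which fuses lipid droplets, stood at 1004 and 1219 CPM in members, against 10.1 and 19.6 CPM in remaining spots (6.29 ± 0.23). Both lipases of stored triglyceride were raised, Lipe (hormone-sensitive lipase) by 5.55 ± 0.22 and Pnpla2 (adipose triglyceride lipase) by 4.79 ± 0.24. Car3, a carbonic anhydrase very abundant in rodent fat, rose by 5.90 ± 0.27, the droplet coat gene Plin4 by 5.69 ± 0.18 and Lpl, the lipase that frees fatty acids from circulating lipoproteins, by 3.76 ± 0.23. Fitm1, a droplet gene of muscle, was the exception, at 9.82 and 17.9 CPM in members, against 101.3 and 100.6 CPM in remaining spots (-2.83 ± 0.18).

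Fat cell transcription factors were raised as well. Pparg, the master regulator of fat cell differentiation, stood at 87.1 and 101 CPM in members, against 1.41 and 2.13 CPM in remaining spots (5.73 ± 0.17). Cebpa, its partner, stood at 315 and 422 CPM in members, against 19.6 and 18.2 CPM in remaining spots (4.27 ± 0.18). Of 12 tested, 11 were higher and 1 lower (median 3.10), and the one that fell was Cebpd, by 1.21. Rxra, the partner of PPARγ that most cells make, rose by 0.43 ± 0.14, a direction that turned to -0.095 under scaling by library totals.

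Genes of fatty acid synthesis were raised throughout their list, with 15 of 15 tested genes higher (median 4.61). Thrsp, a lipogenic gene driven by thyroid hormone and carbohydrate (chromosome 7, 97412933 to 97417550), stood at 4632 and 4809 CPM in members, against 16.4 and 40.6 CPM in remaining spots (7.51 ± 0.30). Acaca, acetyl-CoA carboxylase 1, stood at 1881 and 1657 CPM in members, against 23.9 and 32.5 CPM in remaining spots (5.98 ± 0.24), and Acacb and Elovl6 rose by 5.88 ± 0.20 and 4.98 ± 0.19.

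Genes of fatty acid oxidation, which kidney tubules also perform at a high rate, were raised less. Of 20 tested genes, 16 were higher and 4 lower (median 1.66). The mitochondrial trifunctional protein gene Hadhb stood at 1256 and 1392 CPM in members, against 95.9 and 109 CPM in remaining spots (3.69 ± 0.20). Hadha, Acaa2 and Crat rose by 3.05 ± 0.19, 2.95 ± 0.20 and 2.71 ± 0.18.

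Respiratory chain genes were raised nearly as a whole. Of 40 nuclear genes of oxidative phosphorylation, 38 were higher and 1 lower (median 1.51), and their summed level was 54780 and 64933 CPM in members, against 22261 and 23322 CPM in remaining spots. Cyc1, cytochrome c1 of complex III, stood at 1225 and 1443 CPM in members, against 338 and 358 CPM in remaining spots (1.94 ± 0.20). The exception was Atp5g1, which encodes a copy of subunit c of the ATP synthase ring, at 69.2 and 103 CPM in members, against 455 and 478 CPM in remaining spots (-2.45 ± 0.18). All 13 mitochondrially encoded genes were higher (median 1.298), or 7 of 13 under library totals (median 0.77), with the largest rise in mt-Atp8 (2.44 ± 0.17).

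Genes of insulin and adrenergic signalling were higher in 14 of 15 tested and lower in none (median 2.90), or 12 and none under library totals. Slc2a4, the insulin-responsive glucose transporter GLUT4, stood at 297 and 273 CPM in members, against 8.50 and 13.0 CPM in remaining spots (4.76 ± 0.17). Prkar2b, the protein kinase A subunit of fat cells, rose by 6.82 ± 0.21, Trarg1, which assists GLUT4 traffic, by 6.13 ± 0.17 and the insulin-responsive phosphodiesterase gene Pde3b by 4.44 ± 0.16. The creatine and calcium cycling list, a UCP1-independent route to heat, ran the other way. None of its 7 tested genes was higher and 6 were lower (median -1.88). Against collagen-rich spots, 1 was higher and 4 lower (median -0.96). Against urothelium-rich and macrophage-rich spots, none was higher and 5 were lower (medians -1.49 and -0.94). These falls are relative to kidney tissue, and the level of these genes in fat cells alone was not tested. Gatm, which makes the creatine precursor and is abundant in proximal tubule, stood at 20.1 and 41.3 CPM in members, against 133 and 200 CPM in remaining spots (-2.46 ± 0.17), while the phosphatase gene Alpl fell by 2.11, the creatine transporter gene Slc6a8 by 1.88 and Ckmt1 by 2.42.

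**Figure D2:**
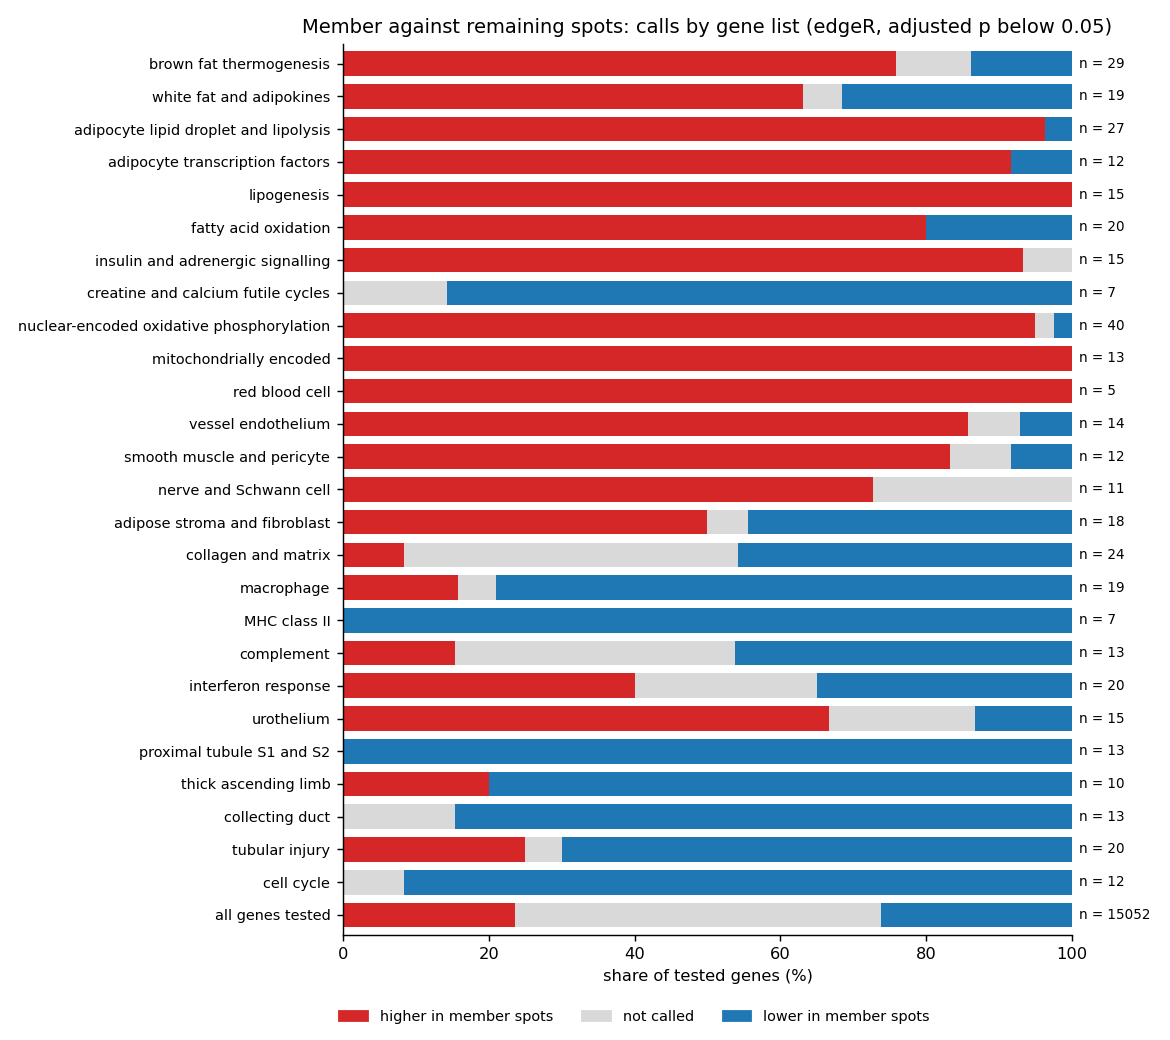
Share of the tested genes of each list (%) that were higher in member spots (red), not called (grey) or lower (blue) against the remaining spots, edgeR adjusted p below 0.05. The fat cell, respiratory chain and red blood cell lists are mostly red and the nephron lists are mostly blue.

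The 15 largest rises held further fat cell genes. After Cox8b and Elovl3 came Poln at 7.53 ± 0.31, a DNA polymerase gene that lies 1262 bases from Nat8l on chromosome 5. Nat8l makes N-acetylaspartate, a metabolite also produced in brown fat, and rose by 6.92 ± 0.19. Reads of such neighbours may be split between them. Orm1 and Orm3, acute-phase carrier genes, rose by 7.06 ± 0.19 and 7.29 ± 0.24, but are near-identical copies whose counts are uncertain. Adig, a fat cell membrane protein gene, rose by 7.04 ± 0.23 and Lncbate1, a long non-coding RNA of brown fat, by 6.74 ± 0.27. Myl1, a myosin light chain gene of fast skeletal muscle, rose by 7.40 ± 0.23 and stood at 47.4 and 51.4 CPM in members, against 0.192 and 0.385 CPM in remaining spots. It was the only 1 of 5 tested skeletal muscle genes that was called.

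Both sections gave much the same fold changes. Among all tested genes, 81.8% moved in the same direction in sections 1 and 2, with a median absolute difference of 0.34 between the log2 fold changes. With 1 residual degree of freedom the edgeR fit took its spread wholly from all genes together, so adjusted p-values are very small. The limma-voom fit, which shares the spread only in part, called 3614 genes higher and 3798 lower, while DESeq2 called 2322 and 2298.

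**Figure D3:**
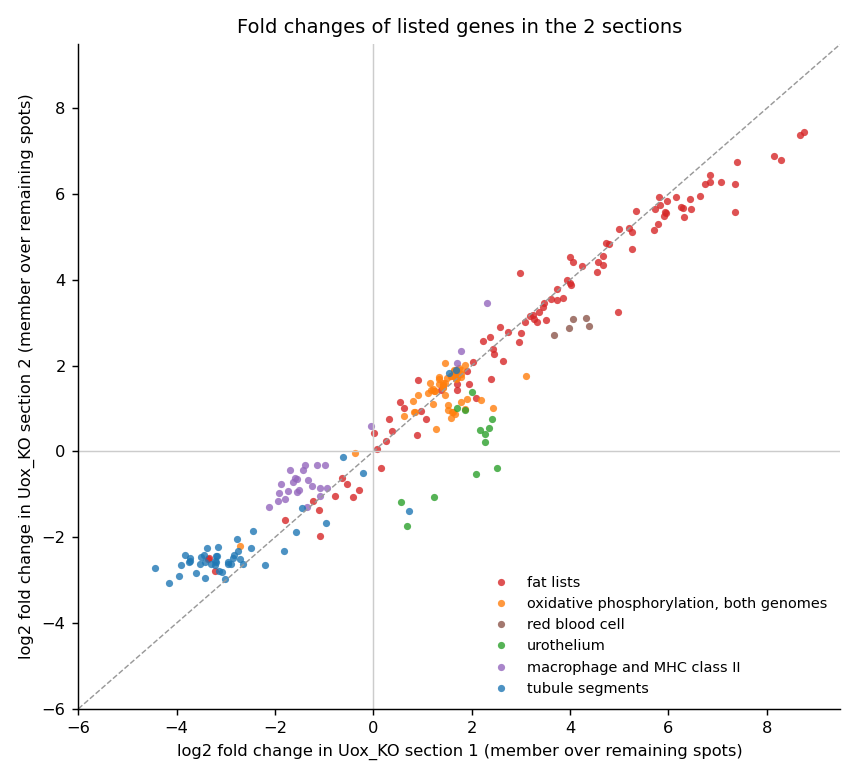
Log2 fold change of member over remaining spots in Uox_KO section 1 (x axis) and section 2 (y axis) for genes of selected lists with at least 3 UMIs in every sum, each point 1 gene. Most genes of the fat lists sit in the upper right, most tubule genes in the lower left, and most urothelium genes below the dashed diagonal of equal fold changes.

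Genes of other tissues were found in members as well. Whether their RNA came from the fat or from kidney or pelvis in the same spots cannot be told apart. Vessel endothelium genes were higher in 12 of 14 tested and lower in 1 (median 1.33). Cdh5, the cadherin of endothelial junctions, stood at 78.6 and 78.9 CPM in members, against 13.2 and 13.9 CPM in remaining spots (2.54 ± 0.15), and the VEGF receptor gene Kdr rose by 2.06 ± 0.15. All 5 red blood cell genes were higher (median 3.56). Hbb-bs, β-globin, stood at 1085 and 1698 CPM in members, against 53.7 and 197 CPM in remaining spots (3.71 ± 0.21). In whole sections, however, Hbb-bs stood at 109 and 323 unscaled CPM in Uox_KO, against 2516 and 2382 in Control, so the difference lies within Uox_KO sections that held less globin RNA than Control.

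Stromal genes were mixed, with 9 of 18 tested higher and 8 lower (median 0.36), turning to -0.17 under scaling by library totals and to -0.04 in the fit over all 4 sections without Uox_KO section 2. Clec3b and Gsn, genes of adventitial and fat fibroblasts, rose by 3.45 ± 0.19 and 3.05 ± 0.19, and Igf1 by 2.62 ± 0.16, while Dpp4 fell by 2.16. Collagen and matrix genes were higher in 2 of 24 tested and lower in 11 (median -0.39), or in 2 and 20 under library totals (median -0.91). Postn, periostin, rose by 2.77 ± 0.15 and Fn1, fibronectin, fell by 1.65.

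Smooth muscle and pericyte genes were higher in 10 of 12 tested and lower in 1 (median 0.996). The rise was larger in section 1, with a summed level of 1140 and 456 CPM in members, against 454 and 328 CPM in remaining spots. In the fit over all 4 sections, the list median was 0.55 without Uox_KO section 1 and 1.23 without Uox_KO section 2. Myh11, the smooth muscle myosin, stood at 133 and 33.6 CPM in members, against 26.0 and 12.05 CPM in remaining spots (1.96 ± 0.15). Rgs5, a pericyte gene, rose by 1.58 ± 0.14. Without the members that were also urothelium-rich, the smooth muscle count was 6 higher and none lower, and under library totals 6 and 1. Of 11 tested nerve and Schwann cell genes, 8 were higher and none lower (median 1.10), or 5 and 1 under library totals, and the leading one, S100b (5.50 ± 0.33), is also made by fat cells.

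Macrophage and antigen presentation genes were mostly lower. Of 19 tested macrophage genes, 3 were higher and 15 lower (median -0.98), and their summed level was 654 and 918 CPM in members, against 1527 and 1270.2 CPM in remaining spots. Ctss and Mpeg1 fell by 1.501 and 1.37. Retnla, a gene of alternatively activated macrophages that mouse fat also expresses, stood at 44.8 and 69.9 CPM in members, against 9.06 and 6.35 CPM in remaining spots (2.93 ± 0.16). All 7 MHC class II genes were lower (median -1.32), and Cd74 stood at 235 and 378 CPM in members, against 1027 and 925 CPM in remaining spots (-1.70 ± 0.19). Of the lipid-associated macrophage list 3 of 12 tested were higher and 8 lower. Its genes Fabp5 (4.81 ± 0.19) and Lpl are fat cell genes, and Spp1, osteopontin, which injured tubules also make, stood at 817 and 648 CPM in members, against 7242 and 6970 CPM in remaining spots (-3.29 ± 0.26).

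Complement and interferon genes split within their lists. Complement had 2 of 13 tested genes higher and 6 lower (median -0.51), or 2 and 10 under library totals. C4b stood at 134 and 179 CPM in members, against 45.6 and 38.0 CPM in remaining spots (1.91 ± 0.15), and C3, the substrate of the alternative pathway that adipsin serves, at 656 and 771 CPM in members, against 272 and 272 CPM in remaining spots (1.39 ± 0.18). Cfi, the gene of a complement inhibitor, fell by 3.07. Interferon response genes were higher in 8 of 20 and lower in 7 (median 0.21, turning to -0.31 both under library totals and in the fit over all 4 sections without Uox_KO section 2). Ifi27l2a stood at 2431 and 3862 CPM in members, against 188 and 200 CPM in remaining spots (3.98 ± 0.24), and the chemokine gene Cxcl10 fell by 2.34.

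Lymphocyte genes gave little. Of 15 tested T and NK cell genes 1 was higher and 1 lower, or 1 and 6 under library totals, and of 8 tested B and plasma cell genes 1 was higher and none lower. That one was Igkc, the immunoglobulin kappa constant region, and it rested on section 2. It had 5 and 275 UMIs in members, against 1807 and 957 UMIs in remaining spots, a log2 fold change of 0.76 ± 0.18 made of -3.63 in section 1 and 2.30 in section 2, and limma-voom (adjusted p = 0.18) and DESeq2 (adjusted p = 0.86) did not call it.

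Genes of urothelium, the lining of the renal pelvis, were also found in members. Of 15 tested genes, 10 were higher and 2 lower (median 1.36), or 8 and 4 under library totals, and the summed level was 869 and 271 CPM in members, against 219 and 189 CPM in remaining spots. Upk1a stood at 106 and 18.4 CPM in members, against 20.1 and 11.1 CPM in remaining spots (1.71 ± 0.16). Upk3a rose by 1.53 ± 0.16. In the fit over all 4 sections without Uox_KO section 1, the list median was -0.26. When the members in the top 6% for uroplakins were left out, the list had 1 gene higher and 7 lower (median -0.88), and Upk1a and Upk3a turned to -0.52 and -1.302. The remaining spots kept their own urothelium-rich spots (111 and 127), so a fall of the uroplakin genes was built into this setting. Where these spots lie, around the kidney or at its hilus, was not examined, since spot positions were not used. The brown fat list without those members had 22 genes higher and 4 lower (median 3.49).

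Nephron genes were low in members but not absent. None of the 13 genes of proximal tubule segments S1 and S2 was higher and all 13 were lower (median -2.87). Lrp2, the endocytic receptor megalin, stood at 38.9 and 74.5 CPM in members, against 417 and 447 CPM in remaining spots (-2.96 ± 0.18). Slc22a12, the urate transporter URAT1, fell by 3.06. In the thick ascending limb, 8 of 10 genes were lower and 2 higher (median -2.90), and Umod, uromodulin, stood at 86.3 and 115 CPM in members, against 1048 and 824 CPM in remaining spots (-3.21 ± 0.20). The glomerulus list had 8 of 10 genes lower and none higher. Of 20 tubular injury genes, 14 were lower and 5 higher (median -1.78), or 15 and 3 under library totals. Without the members that were also urothelium-rich, 17 were lower and 3 higher, while the remaining spots kept their own urothelium-rich spots. Havcr1, the injury marker KIM-1, stood at 13.7 and 3.30 CPM in members, against 76.7 and 91.5 CPM in remaining spots (-3.48 ± 0.20). One of the injury genes that were higher was Plin2 (2.37 ± 0.19), a lipid droplet coat gene that fat cells make. The largest falls among the genes reported here were those of Slc22a7 and Gc, by 4.31 and 4.20. Listed genes not reported here had larger falls, with a lowest value of -7.41 in the collecting duct list.

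Along the marker score, Ucp1 and Retn did not peak in the same spots. In unscaled CPM of the spots in each rank class, Ucp1 stood at 4684 in the top 1% of section 1, 880.4 at ranks of 4 to 6%, 152 at 6 to 8% and 2.8 in the lowest 75%. In section 2 the same classes held 4320.3 CPM, 874, 307 and 10.7. Because the score contains Ucp1, this fall is fixed by the rule. Retn, which is not in the score, was higher around the edge than at the top, with 882 CPM in the top 1%, 1681 at 4 to 6% and 1582 at 6 to 8% in section 1, and 758, 2622 and 1842 CPM in section 2. At ranks of 8 to 12%, Retn was down to 93.2 and 228 CPM in sections 1 and 2.

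**Figure D4:**
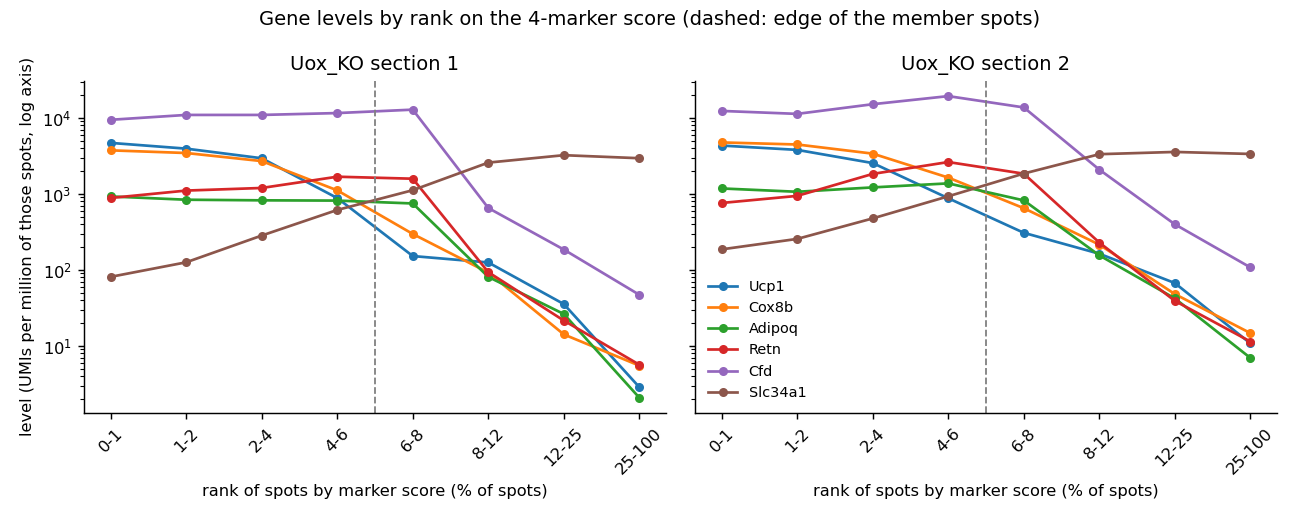
Levels (unscaled CPM of the spots in each class, log axis) of 6 genes against the rank of spots by marker score in both Uox_KO sections, with a dashed line at the edge of the members. Ucp1 and Cox8b fall from the left, while Retn and Cfd stay level or rise up to the edge and drop at 8 to 12%.

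Within the members, levels of other fat genes were set against the balance of the markers. Members of each section were split into 3 classes (53, 53 and 53 spots in section 1 and 51, 53 and 51 spots in section 2) by the score of Ucp1 and Cidea minus that of Adipoq and Plin1, a split chosen after values were seen and given without a test. Genes made by the same cells as the markers had to follow this split, and only some genes of the lists are given. Levels are unscaled CPM of each class, from the highest to the lowest balance. Cox8b stood at 3599.6, 3003 and 1745 in section 1 and at 4573, 3669 and 1647 in section 2. Elovl3 stood at 107, 97.3 and 43.4 in section 1 and at 101, 40.8 and 17.6 in section 2, and Cpt1b at 324, 263 and 116 and at 360.1, 281 and 97.8. These 3 genes, of the 29 tested in the brown fat list, were lower in each step toward the Adipoq and Plin1 side in both sections.

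Several genes of the white fat and storage lists ran in the opposite order. Retn stood at 533, 1069 and 2601 CPM in section 1 and at 683, 1424 and 3355 in section 2. Car3 stood at 1727, 2312 and 5764 in section 1 and at 2797, 4922 and 9801 in section 2, and Nnat at 1.6, 13.2 and 52.4 and at 2.6, 13.8 and 84.6. Ifi27l2a and C4b ran the same way, C4b at 68.5, 109 and 217 in section 1 and at 55.7, 149 and 347 in section 2, and Ifi27l2a at 981, 1619 and 5183 in section 1 and at 1677, 3164 and 6542 in section 2. General fat cell genes were nearly level, such as Fabp4 at 11905, 12875 and 12948 in section 1 and 13985, 13939 and 13789.9 in section 2, and Lipe at 802, 861 and 912 and at 819, 890.03 and 991. Adrb3, although in the brown fat list, did not follow Cox8b, Elovl3 and Cpt1b and was level too, at 155, 155 and 161 and at 133, 132 and 149.

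Depth and tissue mix changed over these classes. Median UMIs per spot were 23969, 16062 and 9712 in section 1 and 40891, 27376 and 15861 in section 2, the mitochondrial share was 31.0, 29.9 and 21.3% and 26.5, 22.0 and 17.9%, and Upk1a stood at 49.4, 75.002 and 204 CPM and at 5.1, 13.2 and 40.6. Their part in the order of the fat genes was not tested.

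**Figure D5:**
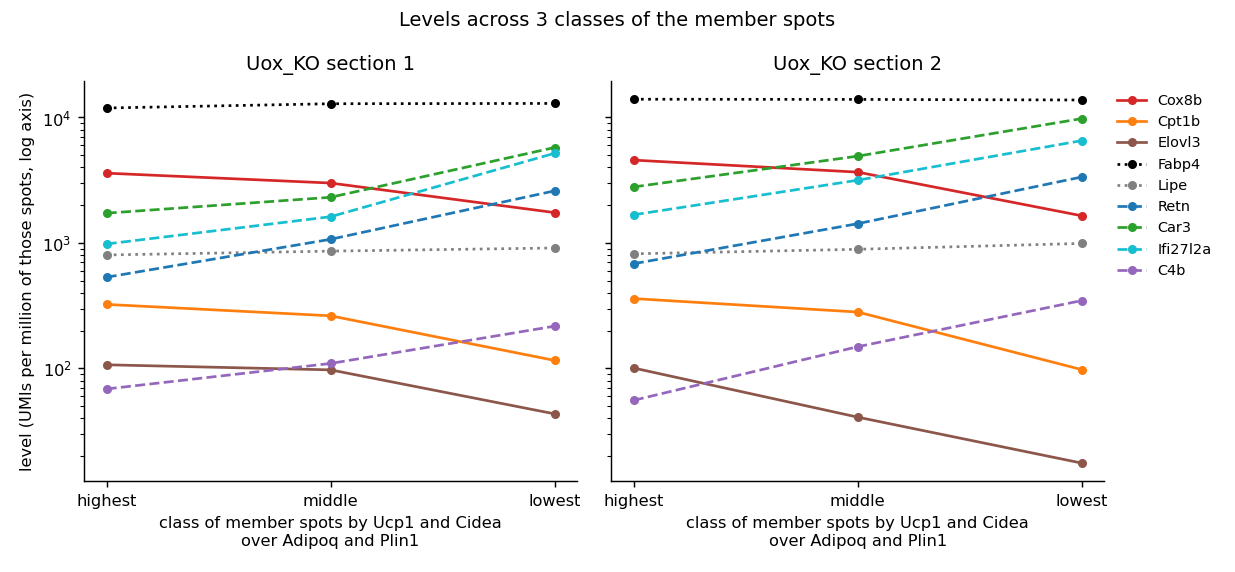
Levels (unscaled CPM, log axis) of 9 genes in the highest, middle and lowest class of members by Ucp1 and Cidea over Adipoq and Plin1, for each Uox_KO section. Cox8b, Cpt1b and Elovl3 fall to the right, Retn, Car3, Ifi27l2a and C4b climb, and Fabp4 and Lipe stay flat.

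Members were also set against other minor tissues of the same sections. Comparison spots were the top 6% by the same score for 4 collagen genes (158 and 152 spots), 4 uroplakin genes (111 and 127 spots) and 4 macrophage genes (159 and 153 spots), without spots shared with the members. All these sets were chosen by their own genes, so the listed fall of those tissues' genes is built in and is not described.

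Against collagen-rich spots, 3372 (28.2%) of 11965 tested genes were higher in members and 3466 (29%) lower, or 1196 and 8568 under library totals. Of the brown fat list 26 of 29 tested were higher and 1 lower (median 3.71), and of the droplet list 26 of 27 were higher. Cox8b stood at 4388 and 5239 CPM in members, against 12.9 and 34.8 CPM in collagen-rich spots (7.73 ± 0.30), and Retn at 1644 and 2122 CPM in members, against 54.5 and 64.0 CPM (4.98 ± 0.23). All 40 tested respiratory chain genes but Atp5g1 were higher (median 2.69). Ifi27l2a rose by 2.68 ± 0.22, while all 12 tested T and NK cell genes and all 7 MHC class II genes were lower, and Trem2, a receptor gene of lipid-handling macrophages, fell by 3.94.

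Against urothelium-rich spots, 2497 (22.6%) of 11062 genes were higher and 2667 (24.1%) lower, or 1028 and 6556 under library totals. This set reached down to scores of 1.78 and 0.51, so some of its spots held few uroplakin UMIs. The brown fat list had 23 of 29 tested genes higher and 1 lower (median 3.69). Otop1 stood at 155 and 120.4 CPM in members, against 2.48 and 2.64 CPM in urothelium-rich spots (5.70 ± 0.28, edgeR adjusted p = 5.5e-09). C3 rose by 2.25 ± 0.27, Retnla by 3.27 ± 0.33 and Cdh5 by 2.23 ± 0.20, and of 12 tested smooth muscle genes 1 was higher and 6 lower.

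Against macrophage-rich spots, 3293 (27.2%) of 12110 genes were higher and 3377 (27.9%) lower, or 1235 and 8700 under library totals. The brown fat list had 25 of 29 tested genes higher and 1 lower (median 4.46). Adrb3 stood at 228 and 196 CPM in members, against 1.79 and 1.11 CPM in macrophage-rich spots (7.16 ± 0.26, edgeR adjusted p = 3.2e-11), and Retn rose by 6.23 ± 0.28. Lipogenesis genes were higher in 15 of 15 in each of these 3 comparisons, and so were all 5 red blood cell genes.

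Shares of spots with a UMI told the same sets apart at equal depth. After thinning each spot to 5000 UMIs, which left out 22 and 3 members and kept 137 and 152, Cox8b was found in 98.5% and 100% of members, against 5.41% and 13.7% of remaining spots. Unthinned, the shares were 98.1% and 100% of members, against 13.4% and 32.4% of remaining spots. Cfd, thinned, was found in 100% and 100% of members, against 28.4% and 49.4% of remaining spots (unthinned 100% and 100%, against 59.6% and 87.8%). In Control spots, thinned Cox8b was found in 0.0793% and 0.715% and Cfd in 0.515% and 1.13%, both lower than in remaining Uox_KO spots. Car3, which kidney tissue of Control sections also held, did not follow them, since it was found in 16.6% and 26.1% of thinned remaining Uox_KO spots, against 21.8% and 20.5% of thinned Control spots. Slc34a1, the phosphate transporter of proximal tubule, was still found in 54.0% and 82.9% of thinned members, against 96.9% and 98.8% of remaining spots (unthinned 89.3% and 100%, against 99.5% and 99.9%).

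Control sections held few such spots. Any marker UMI was found in 35 of 2528 spots of Control section 1 and 98 of 3362 of Control section 2. In Control 1, 0 of 2528 spots reached the lowest member score of Uox_KO section 1, which allows a share of up to 0.119% (3 spots of the total, with an exact 95% upper limit of 0.146%), and in Control 2, 14 of 3362 spots (0.416%, exact 95% interval 0.228 to 0.698%) did. Those 14 spots held 406 Ucp1 UMIs, or 1566 unscaled CPM of their 259326 UMIs, with Cox8b at 2464, Cfd at 2827 and Retn at 174 CPM, and no Elovl3 UMI. In whole sections Ucp1 stood at 189.8 and 249 unscaled CPM in Uox_KO, against 0 and 4.06 in Control, and Cfd at 713 and 1414 in Uox_KO, against 1.22 and 8.34 in Control. How much fat was left on each kidney and the genotype cannot be told apart.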

How the data were processed

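The deposited values are whole UMI counts of each gene in each spot, and the submitters' processing notes name Space Ranger 1.3.1 and the build mm10. Files pair 32285 Ensembl IDs with symbols. Groups came from the labels, whose replicate numbers differ from those in file names. Spot positions were not used here. The members and the 43 gene lists (604 genes, 6 unmatched) were chosen with earlier results of these data known.

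Counts were summed per section over members and over the other spots, filtered with filterByExpr, TMM-scaled and tested with edgeR 4.0.16 (R 4.3.3), quasi-likelihood F test, section as a block, 4 sums and 1 residual degree of freedom, Benjamini-Hochberg over all genes tested, threshold 0.05. Markers stayed in library totals and out of the tested genes. Alternatives were limma-voom (limma 3.58.1, added after seeing the data), DESeq2 1.42.0, library totals, no filter, no block, shares of 3 and 10%, other rankings of spots, subsets of members, spots with at least 2000 UMIs, sums without mitochondrially encoded genes, and leaving out sections. Shares of spots carry exact Clopper-Pearson intervals.

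The genes named are the 15 largest rises and 10 largest falls called, in the same direction in both sections, at a mean CPM of 10 or more, up to 4 genes of smallest p per list, any gene of the first 4 fat lists and 5 rises and falls of the other comparisons. Slc34a1 was named after its values were seen. Some genes that fall under the rule are not reported here. The pipeline was tested on simulated data.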

Additional observations from a re-analysis of the deposited data

How the results depend on the processing

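Medians of the fat cell, respiratory chain, vessel, red blood cell, macrophage and nephron lists kept their direction under each alternative against the remaining spots, while those of stroma, interferon, urothelium and several small lists did not. Scaling by library totals alone gave 1856 genes higher and 7388 lower against the remaining spots, 1196 and 8568 against collagen-rich, 1028 and 6556 against urothelium-rich and 1235 and 8700 against macrophage-rich spots. DESeq2 gave 2322 and 2298, 1971 and 1573, 1332 and 1204, and 2015 and 1614 in the same order. Taking the top 10% of spots gave 1507 higher and 1279 lower against urothelium-rich spots. The section is the pairing unit, and without the replicate block the counts against the remaining spots were 3470 and 3791. A fit over all 4 sections, with the 6% rule applied in Control too, called 3164 and 5050. Few Control spots held a marker UMI (35 of 2528 and 98 of 3362). The 6% there was therefore filled up with spots of score 0, the deepest first, and is not a fat-rich set. Leaving out a section of this fit leaves 1 section of its genotype, so counts of calls are not given for it. Against the other kinds of spots, 1 section leaves no residual degrees of freedom, so leaving one out gives fold changes with no test. Among single genes, Igkc turned to -0.65 with DESeq2, -1.10 for the top 3% of spots and -3.93 without section 2 in the fit over all sections, with per-section values of 2.30 and -3.63. Mest turned to -0.89 in that fit and had per-section values of 2.45 and -0.16. Library totals turned Pank1 to -0.46 and Rxra to -0.095, the top 10% turned Tcf21 to 0.52, and leaving out urothelium-rich members turned Upk1a to -0.52 and Upk3a to -1.302. The turns of Upk1a and Upk3a were built in, since the remaining spots kept their own urothelium-rich spots. Why the other values moved was not tested.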

Other observations

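Cell cycle genes were mostly lower in members than in remaining spots of the Uox_KO sections, with none higher and 11 of 12 tested lower, and Mki67, the proliferation antigen, stood at 4.27 and 3.30 CPM in members, against 13.4 and 13.9 CPM in remaining spots (-1.89 ± 0.29). Immediate early genes were mixed, with 3 of 14 tested higher and 4 lower, shares near the 23.6% and 26.2% of all genes tested, or 2 and 8 under library totals. Nr4a1, a nuclear receptor that β-adrenergic signals induce in fat and muscle, stood at 53.8 and 64.6 CPM in members, against 3.91 and 5.04 CPM in remaining spots (3.73 ± 0.16). Of 15 tested genes of haem, iron and antioxidant defence, 4 were higher and 8 lower. Hp, haptoglobin, which binds free haemoglobin and is made by liver and fat cells, stood at 1884 and 1479.6 CPM in members, against 35.2 and 31.3 CPM in remaining spots (5.65 ± 0.23).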
